A study of Mus musculus with 6 samples.

Results

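Liver, brain, endocrine and skin miRNAs were examined in mouse heart tissue as a check of purity and background. Whether heart cells themselves make any of them was not tested. The set held 10 mature miRNAs, chosen by name from the 2009 names in the deposited table. It comprised mmu-miR-122-5p, mmu-miR-192-5p and mmu-miR-194-5p of liver and gut, mmu-miR-124-3p, mmu-miR-9-5p, mmu-miR-9-3p and mmu-miR-9b-3p of brain, mmu-miR-375-3p of endocrine cells, and mmu-miR-203-3p and mmu-miR-205-5p of skin, written below without the species prefix. All 10 names were listed, 9 had reads in at least 1 library, and 8 passed the filter used for testing, a mean of at least 1 RPM (reads per 1000000 reads on listed names) with reads in at least 3 libraries.

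The study compared 3 hearts after ischemia and reperfusion (I/R) with 3 Sham hearts, all from male mice. Every heart was isolated and perfused on a Langendorff system, which feeds the coronary vessels through the aorta, so that both groups lacked a circulation through other organs. I/R hearts were arrested with cardioplegia for 30 min and reperfused for 1 h, and Sham hearts were not arrested. The labels give no strain or age, and their library protocol describes kits for polyadenylated mRNA, although the libraries are titled as miRNA-seq. The samples are labelled as biological replicates and nothing states how the hearts were paired or batched.

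miRNAs are cut as short duplexes from hairpin precursors, and usually one strand is loaded into a silencing complex that represses mRNAs matching its seed. Some are made almost solely in one lineage. miR-122 is the dominant miRNA of hepatocytes, miR-192 and miR-194 are transcribed together in liver, gut and kidney epithelium, miR-124 and miR-9 belong to neurons and their progenitors, miR-375 to pancreatic islets and other endocrine cells, and miR-203 and miR-205 to stratified epithelium.

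The mature sequences show which of these names can be told apart by their reads. They are RefSeq records on GRCm38.p6, written 5′ to 3′ with the seed, bases 2 to 8, in capitals, and 7 of the 10 miRNAs had an entry. The first set shows miR-192-5p beside miR-215-5p, the only other mature miRNA of the table with the seed UGACCUA, and beside miR-194-5p, which shares both of their clusters but not their seed.
miR-192-5p: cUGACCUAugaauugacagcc
miR-215-5p: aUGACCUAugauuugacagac
miR-194-5p: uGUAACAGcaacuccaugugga

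miR-192-5p lies at chr19:6264857-6264877 on the plus strand, in a hairpin that overlaps no other annotated gene and stands 115 bases downstream of the Mir194-2 hairpin. The Mir194-1 hairpin on chromosome 1 stands 195 bases from that of Mir215, in an intron of the antisense gene 2010103J01Rik and on the opposite strand of an Iars2 intron. The identical miR-194-5p sequence is thus encoded at 2 loci, chr1:185313325-185313346 and chr19:6264658-6264679, and its reads cannot be assigned to either.

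The second set shows the miR-9 names, because miR-9b-3p is read from the strand opposite to miR-9-5p. The reverse complement of miR-9b-3p is added to show the match.
miR-9-5p: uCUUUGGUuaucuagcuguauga
miR-9b-3p: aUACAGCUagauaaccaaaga
reverse complement of miR-9b-3p: ucuuugguuaucuagcuguau
miR-9-3p: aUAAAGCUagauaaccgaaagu
miR-9b-5p: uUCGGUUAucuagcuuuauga

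All 21 bases of miR-9b-3p pair with bases 1 to 21 of miR-9-5p, while miR-9b-5p and miR-9-3p share a run of 19 complementary bases. Each of miR-9-5p and miR-9b-3p has 3 loci. The miR-9-5p loci are chr3:88215613-88215635 in an intron of Gm3764, chr7:79505279-79505301 in an intron of Mir9-3hg and chr13:83738821-83738843 in an exon of C130071C03Rik, all on the plus strand of these long noncoding genes. In the Mir9-1 hairpin on chromosome 3, both arms of miR-9 are in capitals, the 5p arm first.
Mir9-1: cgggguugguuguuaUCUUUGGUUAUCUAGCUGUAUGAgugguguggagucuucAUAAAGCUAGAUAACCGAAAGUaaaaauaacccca

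The third set shows the skin miRNAs and the name read opposite to miR-203-3p, since the same question of strand arises there.
miR-203-3p: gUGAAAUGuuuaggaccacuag
miR-203b-5p: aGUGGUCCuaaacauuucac
miR-205-5p: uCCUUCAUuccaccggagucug

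miR-203-3p lies at chr12:112130927-112130948 on the plus strand, in a hairpin outside other annotated genes, and all 20 bases of miR-203b-5p pair with its bases 1 to 20. miR-205-5p lies at chr1:193507503-193507524 on the minus strand, in an exon of the long noncoding gene 4631405K08Rik. The Mir122 hairpin lies on chromosome 18 at 65248861 to 65248926 on the plus strand, in an exon of AC157910.3, and the Mir122b hairpin is listed within it at 65248863 to 65248921. The Mir375 hairpin lies on chromosome 1 at 74900658 to 74900721 on the minus strand, outside other genes. The hairpins for miR-124 lie on chromosomes 2, 3 and 14, each in an exon of a long noncoding gene.

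The deposited values were whole reads times one factor per library, and levels are given here as RPM. Libraries held 7874103 to 8196102 reads in I/R hearts and 8099411 to 9197869 reads in Sham hearts, so that 3 reads, taken as the limit that a count of 0 allows, stood for 0.326 to 0.381 RPM. Intervals and limits from reads cover counting error only. The 6 heart miRNAs checked had reads in all 6 libraries, at widely different levels. miR-133a-3p was at 798 to 1798 RPM, miR-133b-3p at 21.0 to 55.9 RPM and miR-208b-3p at 1.78 to 3.67 RPM. miR-1a-3p, the muscle miRNA, was at 351573 to 375821 RPM in I/R hearts and 378281 to 382877 RPM in Sham hearts, and the cardiac myosin miRNAs miR-208a-3p and miR-499-5p were at 147 to 181 RPM and 5217 to 6248 RPM over the 6 libraries.

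The 10 miRNAs together held 3372 ± 355 RPM in I/R hearts and 3037 ± 103 RPM in Sham hearts (SD, n = 3 each), 0.337% and 0.304% of the reads. Nearly all of this was miR-192-5p. Without it the other 9 held 362 ± 65.3 RPM in I/R hearts and 311 ± 57.2 RPM in Sham hearts. Leaving out miR-9b-3p as well, whose reads stood close to 1 to 1 with those of the opposite-strand miR-9-5p, the remaining 8 held 237 ± 34.2 RPM in I/R hearts and 202 ± 29.0 RPM in Sham hearts. Levels spanned the whole range from rank 29 among all names for miR-192-5p to 0 reads for miR-124-3p.

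**Figure D1:**
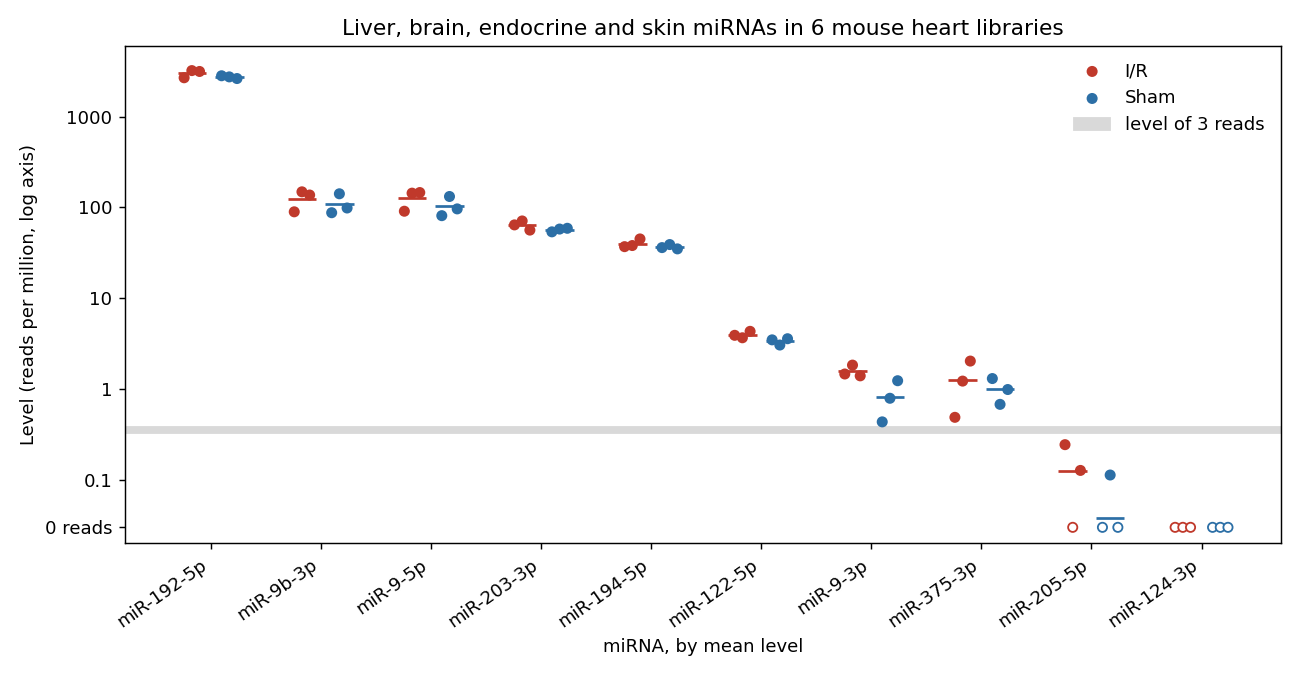
Level of each of the 10 miRNAs in each library, in RPM on a log axis, with I/R hearts (red) left of Sham hearts (blue). Points are hearts, short lines are group means, open points are libraries with 0 reads and the grey band is the level of 3 reads. miR-192-5p lies at 2625 RPM or more in all 6 libraries, miR-205-5p lies below the band, and miR-124-3p has 0 reads.

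miR-192-5p, linked in liver and gut to p53 signalling and epithelial differentiation, was the most abundant of the set. It was at 2677, 3211 and 3140 RPM in I/R replicates 1 to 3, against 2816, 2737 and 2625 RPM in Sham replicates 1 to 3. The groups overlapped, with I/R replicate 1 below Sham replicates 1 and 2 and the other I/R hearts above all Sham hearts. One miR-192-5p read was found for 112 to 145 reads of miR-1a-3p per library. Here and below, reads of miR-1a-3p are those under that name alone. The name miR-1b-5p was more abundant than any other except miR-1a-3p, and its reads count in the totals behind RPM. Whether miR-1b-5p and miR-1a-3p are opposite-strand names was not tested, so these ratios hold for the listed name only. The other arm of its hairpin, miR-192-3p, had 2 reads in all 6 libraries, against 144298 for miR-192-5p.

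miR-194-5p, its partner in the cluster, was far scarcer. It was at 37.0, 38.0 and 45.0 RPM in I/R replicates 1 to 3, against 36.1, 39.0 and 34.9 RPM in Sham replicates 1 to 3. The groups overlapped, with I/R replicate 3 the highest of the 6. Reads of miR-192-5p exceeded those of miR-194-5p by 69.8 to 84.4 times per library, although their hairpins lie side by side and miR-194-5p has a second locus. miR-215-5p, which shares the seed of miR-192-5p and is clustered with the other copy of miR-194, was at 39.6 ± 7.91 RPM in I/R hearts and 36.0 ± 1.03 RPM in Sham hearts. It held 49.6% of its sum with miR-194-5p (95% Wilson interval 48.0% to 51.2%), from 44.7% to 55.4% per library. Why the names of these 2 clusters differ so much in level was not tested. The 3p arms of miR-194 had 29 reads from the Mir194-1 hairpin and 16 from Mir194-2.

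miR-122-5p, the hepatocyte miRNA, was present at a low level in every heart. It had 32, 30 and 34 reads in I/R replicates 1 to 3, against 32, 27 and 29 reads in Sham replicates 1 to 3. This gave 3.90, 3.67 and 4.32 RPM in I/R hearts, against 3.48, 3.05 and 3.58 RPM in Sham hearts. The I/R hearts all lay above the Sham hearts, and the nearest pair of hearts had 30 reads in I/R replicate 2 and 29 reads in Sham replicate 3. One miR-122-5p read was found for 81421 to 123962 reads of miR-1a-3p. Its reads varied less between libraries than sampling alone gives on average, with a chi-square of 0.412 per degree of freedom against the library depths.

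The brain miRNAs did not share one level. miR-124-3p, the most typical neuronal miRNA, had 0 of 50393176 reads, which allows up to 0.0595 RPM over the 6 libraries combined. The other arm of its hairpin, miR-124-5p, had 2 reads in I/R hearts and 4 reads in Sham hearts. The related name miR-124b-3p had 0, as had miR-124-3p.

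miR-9-5p, by contrast, ranked 111 of all names. It was at 90.8, 144 and 146 RPM in I/R replicates 1 to 3, against 81.1, 132 and 96.3 RPM in Sham replicates 1 to 3. The groups overlapped, with replicate 1 lowest in both and Sham replicate 2 close to I/R replicates 2 and 3. miR-9b-3p ran beside it at 89.4, 148 and 137 RPM in I/R replicates 1 to 3, against 87.4, 141 and 98.5 RPM in Sham replicates 1 to 3. The same libraries were high and low for both names, and both were higher in the I/R heart than in the Sham heart of the same replicate number in 3 of 3 pairs. Both varied well beyond counting error, with a chi-square per degree of freedom of 61.0 for miR-9-5p and 57.4 for miR-9b-3p.

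Reads of these opposite-strand names stood close to 1 to 1. miR-9-5p held 49.5% of their sum (95% Wilson interval 48.6% to 50.4%), and 48.1% to 51.6% in single libraries. Their values are therefore uncertain taken singly, and the strand setting of the counting is not given in the sources used here. miR-122-5p stood in a similar relation to miR-122b-3p, with 50.3% of the sum (45.2% to 55.4%), and miR-122-3p to miR-122b-5p, with 51.6% (42.9% to 60.3%). An even split was not found for every such pair of names. miR-203-3p held 91.3% of its sum with miR-203b-5p (90.3% to 92.2%), and miR-9-3p had 59 reads against 2 for miR-9b-5p. The latter pair lies in the same miR-9 hairpins as the even pair, but shares a complementary run of only 19 bases. The cause of these splits was not tested.

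**Figure D2:**
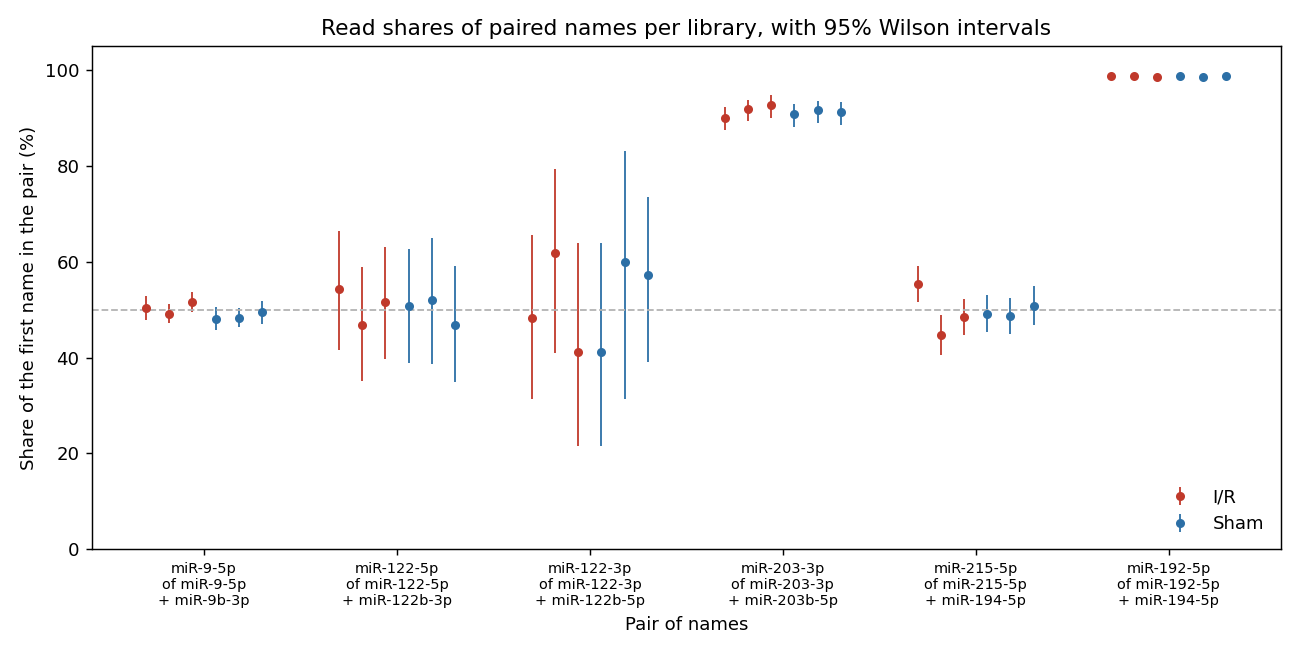
Share in percent of the first name in the reads of a pair, one point per library with its 95% Wilson interval, I/R hearts (red) left of Sham hearts (blue). The dashed line is an even split. miR-9-5p lies at 48.1% to 51.6% of its pair in all 6 libraries, miR-203-3p at 90.1% to 92.7%, and miR-192-5p at 98.6% to 98.8% of its sum with miR-194-5p.

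miR-9-3p, the other arm of the miR-9 hairpin, had 12, 15 and 11 reads in I/R replicates 1 to 3, against 4, 7 and 10 reads in Sham replicates 1 to 3. These were 1.46, 1.83 and 1.40 RPM in I/R hearts, against 0.435, 0.791 and 1.23 RPM in Sham hearts. The groups did not overlap, and I/R replicate 3 lay 1 read above Sham replicate 3. The 5p arm held 99.0% of the reads of the 2 arms (95% Wilson interval 98.7% to 99.2%).

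miR-375-3p, which restrains insulin secretion in islets, had 4, 10 and 16 reads in I/R replicates 1 to 3, against 12, 6 and 8 reads in Sham replicates 1 to 3. These were 0.488, 1.22 and 2.03 RPM in I/R hearts, against 1.30, 0.678 and 0.988 RPM in Sham hearts. The I/R hearts held both the lowest and the highest value, so the groups overlapped throughout. The other arm, miR-375-5p, had 0 reads in all libraries.

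miR-203-3p, which ends the proliferation of keratinocytes as they leave the basal layer, was at 64.2, 70.9 and 56.3 RPM in I/R replicates 1 to 3, against 53.8, 57.8 and 58.9 RPM in Sham replicates 1 to 3. The groups overlapped, with I/R replicate 3 among the Sham hearts. The other arm, miR-203-5p, had 1 read in all libraries. miR-205-5p, the partner skin miRNA, had 2, 0 and 1 reads in I/R replicates 1 to 3, against 0, 1 and 0 reads in Sham replicates 1 to 3. Its group totals of 3 reads and 1 read give an I/R to Sham ratio of 3.23 with an exact 95% interval of 0.260 to 170, so no difference could be read at this depth. Its level over all libraries was 0.0794 RPM (exact 95% interval 0.0216 to 0.203). miR-203-3p thus stood 5188 to 7114 times below miR-1a-3p, and miR-205-5p lower than the limit of 3 reads in each of the 6 libraries.

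In order of mean level the miRNAs with reads were miR-192-5p, miR-9b-3p, miR-9-5p, miR-203-3p, miR-194-5p, miR-122-5p, miR-9-3p, miR-375-3p and miR-205-5p. miR-192-5p stood 24.5 times above miR-9b-3p, and miR-194-5p 10.5 times above miR-122-5p. Neighbours in this order did not overlap over the 6 libraries except miR-9b-3p with miR-9-5p and miR-9-3p with miR-375-3p. The set lies on both sides of the filter. miR-375-3p, with the lowest mean that passed, averaged 1.12 RPM, and miR-205-5p averaged 0.0807 RPM.

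**Figure D3:**
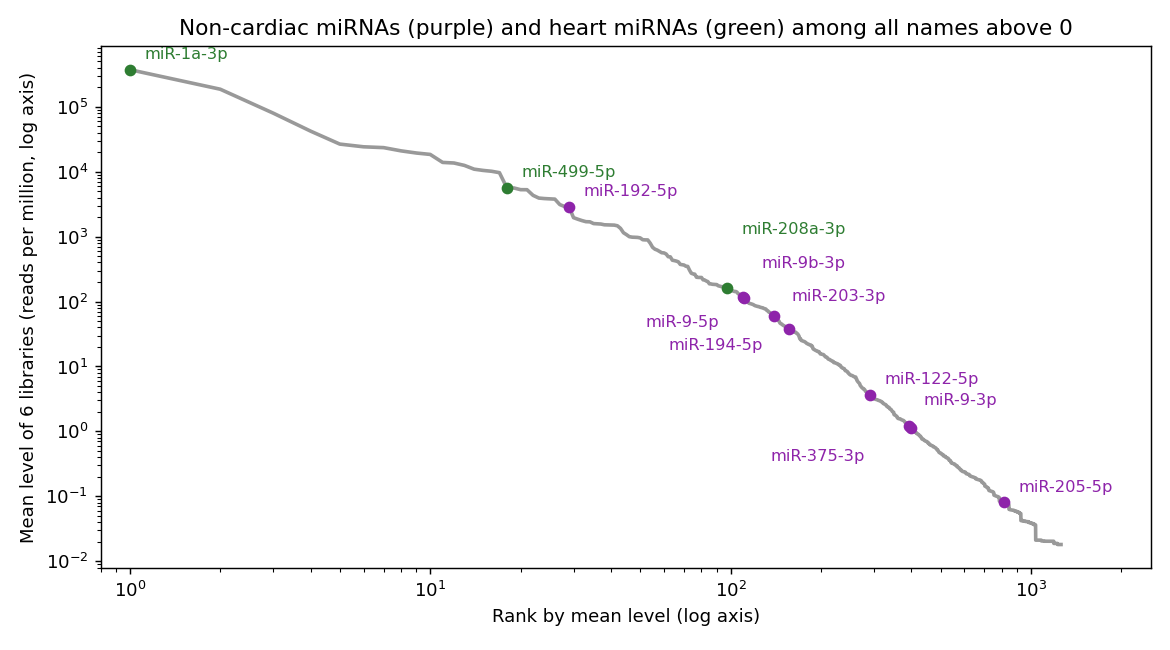
Mean level of each of the 1259 names above 0, in RPM, against its rank, both on log axes. Purple points are the 9 non-cardiac miRNAs with reads and green points are 3 heart miRNAs. miR-192-5p at rank 29 lies between miR-499-5p and miR-208a-3p, and miR-375-3p at rank 400 and miR-205-5p at rank 811 lie far down the curve.

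The comparison of I/R with Sham hearts asked whether any of these miRNAs changed after arrest and reperfusion. None of the 8 tested passed an adjusted p of 0.05 in limma, on log2(RPM + 1) with Benjamini-Hochberg adjustment over all 409 tested names, of which 0 passed (0%). None of the 8 had an unadjusted p under 0.05, against 30 of all 409 (7.33%). edgeR and DESeq2 on the recovered reads also called 0 of the 8, where edgeR called 0 and DESeq2 called 2 of all 409. With the replicate number as a block limma called 4 of all names (0.978%) and 0 of the 8. In that fit 1 of the 8 had an unadjusted p under 0.05, against 54 of all 409 (13.2%). It was miR-9-5p, with an unadjusted p of 0.048 and a limma adjusted p of 0.365. Levels were higher in the I/R heart in 3 of 3 pairs for 4 of the 8, miR-122-5p, miR-9-5p, miR-9-3p and miR-9b-3p, as they were for 26.7% of all tested names. In heart tissue, fewer cells of a type and less RNA per cell cannot be told apart.

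For the liver and gut miRNAs the differences were small. The log2 fold change of miR-192-5p was 0.14 (SE 0.09, 95% interval -0.07 to 0.35, limma adjusted p = 0.661). That of miR-194-5p was 0.12 (SE 0.13, interval -0.18 to 0.42, limma adjusted p = 0.797). That of miR-122-5p was 0.18 (SE 0.17, interval -0.20 to 0.57, limma adjusted p = 0.742). These values are from limma on total-read scaling, and the settings below gave smaller ones. With TMM the fit was edgeR on the recovered reads, without the pseudocount of 1 RPM, so more than the scaling differed. For miR-192-5p the log2 fold change was 0.03 with TMM, 0.04 with median-ratio scaling and 0.07 on totals without the 10 most abundant names. For miR-194-5p it was 0.01, 0.02 and 0.05 under the same scalings, and for miR-122-5p it was 0.12, 0.11 and 0.13.

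miR-9-5p, miR-9b-3p and miR-9-3p had wider intervals. miR-9-5p averaged 127 ± 31.1 RPM in I/R hearts and 103 ± 26.1 RPM in Sham hearts (SD, n = 3 each), a log2 fold change of 0.29 (SE 0.23, interval -0.22 to 0.81, limma adjusted p = 0.678). miR-9b-3p averaged 125 ± 31.3 and 109 ± 28.4 RPM in I/R and Sham hearts, with 0.19 (SE 0.23, limma adjusted p = 0.798). Counted as 1 name, miR-9-5p and miR-9b-3p gave 0.24 (limma adjusted p = 0.730). On the other scalings, with TMM in edgeR among them, miR-9-5p was at 0.18 to 0.22 and miR-9b-3p at 0.08 to 0.12. miR-9-3p had the highest log2 fold change of the set at 0.51 (SE 0.24, interval -0.03 to 1.06, limma adjusted p = 0.598).

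The skin and endocrine miRNAs did not pass either. miR-203-3p averaged 63.8 ± 7.34 RPM in I/R hearts and 56.8 ± 2.66 RPM in Sham hearts (SD, n = 3 each), a log2 fold change of 0.16 (SE 0.13, interval -0.14 to 0.46, limma adjusted p = 0.693). In edgeR with TMM and in limma with median-ratio scaling it was 0.06, and on totals without the 10 most abundant names 0.09. miR-375-3p averaged 1.25 ± 0.772 and 0.990 ± 0.313 RPM in I/R and Sham hearts, with 0.13 (SE 0.30, interval -0.55 to 0.81, limma adjusted p = 0.893). Its sign rested on I/R replicate 3, without which it was -0.12. The intervals of 7 of the 8 left out changes of 2-fold or more on this scale, as did those of 91.2% of all tested names. The pseudocount of 1 RPM understates changes of miR-9-3p, miR-375-3p and miR-122-5p.

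**Figure D4:**
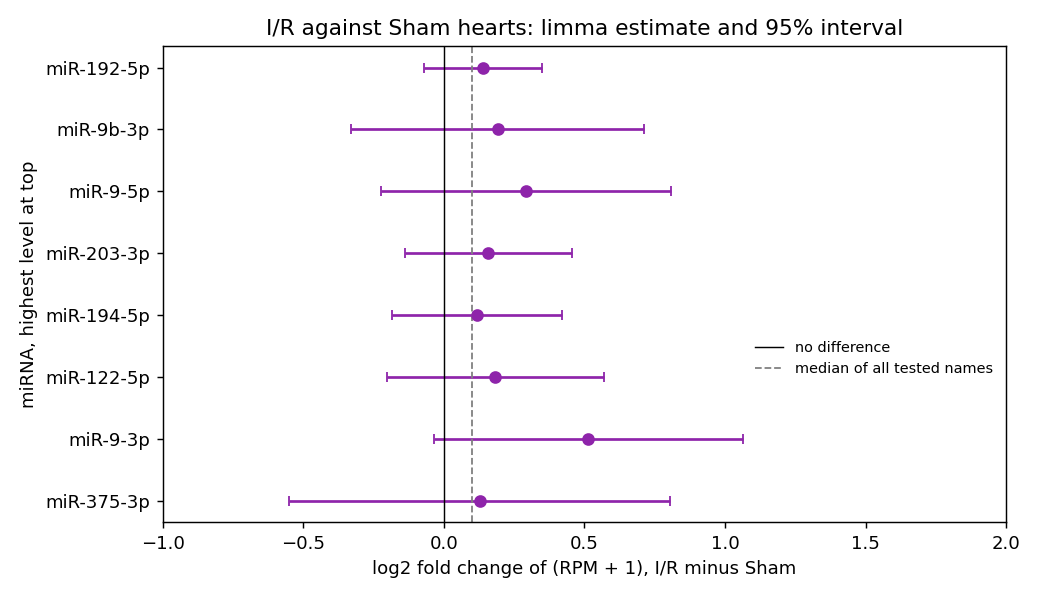
Log2 fold change of (RPM + 1), I/R minus Sham, for the 8 tested miRNAs, ordered by level with the highest at the top. Points are limma estimates and bars their 95% intervals, the solid line is no difference and the dashed line the median of all 409 tested names. All 8 intervals include 0, and that of miR-9-3p reaches from -0.03 to 1.06.

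All 8 estimates were positive, as were 70.2% of those of all tested names. Their median log2 fold change was 0.17, beside 0.10 for all tested names. Groups did not overlap for 2 of the 8, miR-122-5p and miR-9-3p, both higher in I/R hearts, where 11.2% of all tested names were so. miR-9-3p and miR-375-3p passed the filter through the I/R hearts, since their Sham means of 0.820 and 0.990 RPM lay under 1 RPM. Counts and medians over the 8, on any scaling, therefore support nothing. They also hold both miR-9-5p and miR-9b-3p, whose values are uncertain taken singly. Levels are shares of all reads, and 6 heart miRNAs held 37.2% of the reads in I/R hearts against 38.7% in Sham hearts, without overlap. In edgeR with TMM scaling the median of all names was -0.01 and that of the 8 was 0.10. With median-ratio scaling these medians were 0.01 for all names and 0.08 for the 8.

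In wider lists of miRNAs of the same tissues, which hold the 10 miRNAs above again, no name passed in limma. The counts and medians of these lists therefore support nothing either. Of 12 liver and gut names 11 were listed, 9 had reads and 5 were tested, and 0 passed, with a median log2 fold change of 0.14. Only 2 of these 5 were not among the miRNAs above, and the median was the value of miR-192-5p itself. Next to the miRNAs above, miR-215-5p led this list, miR-122-3p was at 1.40 ± 0.443 RPM in I/R hearts and 1.14 ± 0.726 RPM in Sham hearts, and miR-802-5p, another hepatocyte miRNA, had 0 reads.

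Of 16 brain names 15 had reads and 5 were tested, and 0 passed, with a median of 0.19. Only 2 of these 5 were not miR-9 names, and the median was the value of miR-9b-3p itself. miR-128-3p, abundant in brain and also made in muscle, was at 3968 ± 370 RPM in I/R hearts and 3659 ± 825 RPM in Sham hearts (SD, n = 3 each). miR-129-5p was at 8.54 ± 1.33 RPM in I/R hearts and 9.31 ± 2.21 RPM in Sham hearts. miR-137-3p, a neuronal miRNA, had 1 read in all 6 libraries, in Sham replicate 3.

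Of 6 endocrine pancreas names 5 had reads and 3 were tested, and 0 passed, with a median of 0.10. miR-7a-5p, an islet and brain miRNA, was at 179 ± 13.2 RPM in I/R hearts and 167 ± 6.72 RPM in Sham hearts (SD, n = 3 each), far above miR-375-3p, and miR-216a-5p of the exocrine pancreas had 1 read. All 14 skin and epithelium names had reads and 7 were tested. Of these 0 passed, with a median of 0.08. The summed level of the list was 89.5 to 102 RPM in I/R hearts and 82.6 to 89.1 RPM in Sham hearts, without overlap. Most of it was miR-203-3p, whose own groups overlapped. Without miR-203-3p and miR-205-5p the sum was 31.1 to 33.1 RPM in I/R hearts and 28.5 to 30.2 RPM in Sham hearts. Among single tested names 11.2% were higher in I/R hearts without overlap. These sums were taken on total-read scaling only, and how often such sums separate was not counted, so no difference is read from them. The epithelial miR-200c-3p was at 7.47 ± 0.645 RPM in I/R hearts and 7.10 ± 1.37 RPM in Sham hearts. A further 2 members of its family, named after their values were seen, did not overlap between groups and differed in direction. miR-200b-3p was at 3.01 ± 0.285 RPM in I/R hearts and 1.68 ± 0.303 RPM in Sham hearts, with a log2 fold change of 0.59 (limma unadjusted p = 0.0146, adjusted p = 0.598). miR-200a-3p was at 1.28 ± 0.232 RPM in I/R hearts and 1.79 ± 0.357 RPM in Sham hearts, with -0.29 (limma adjusted p = 0.674), and 3.91% of all tested names were lower in I/R hearts without overlap.

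Lists for other cells that heart tissue can hold were present in all libraries. The 3 red blood cell miRNAs summed to 1432 to 1793 RPM in I/R hearts and 1292 to 1603 RPM in Sham hearts. Nearly all of this was miR-486a-5p, which muscle also makes, at 1553 ± 207 RPM in I/R hearts and 1456 ± 157 RPM in Sham hearts. The name miR-486b-3p, outside this list, stood at nearly the same level, with means of 1542 RPM in I/R hearts and 1466 RPM in Sham hearts. Whether miR-486a-5p and miR-486b-3p are opposite-strand names was not tested. The level of miR-486a-5p is therefore uncertain taken singly, and the sum holds for the listed names only. The erythroid miR-451a was at 2.75 ± 1.78 RPM in I/R hearts and 4.72 ± 1.52 RPM in Sham hearts, with overlap, and miR-144-3p, from the same cluster, at 0.246 ± 0.211 RPM in I/R hearts and 0.449 ± 0.274 RPM in Sham hearts. The 3 leukocyte miRNAs summed to 75.9 to 78.5 RPM in I/R hearts and 67.8 to 91.5 RPM in Sham hearts. Most of this was miR-150-5p, at 72.0 ± 3.38 RPM in I/R hearts and 72.2 ± 10.2 RPM in Sham hearts. No name of either list was at 0 over the libraries, and their part in the levels above was not tested.

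Among all tested names, the patterns most like those of the 3 most abundant miRNAs were found by the root mean square difference of log2(RPM + 1) over the 6 libraries, each name set to its own mean. For miR-192-5p these were miR-378c, at 0.08, and miR-7a-5p, at 0.09. miR-9-5p and miR-9b-3p were nearest to each other, at 0.07, and next to miR-140-5p, at 0.08 for miR-9-5p and 0.10 for miR-9b-3p. miR-140-5p was at 67.1, 112 and 100 RPM in I/R replicates 1 to 3, against 56.9, 90.9 and 75.6 RPM in Sham replicates 1 to 3. It was thus lowest in replicate 1 of both groups, as was miR-9-5p.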

How the data were processed

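Mature miRNAs of 6 libraries were deposited as signal values in a table named FPKM. The submitters' processing notes list mm10, fastp 0.23.0 and bcl2fastq 2.19.1.403. No source used here names the aligner, the annotation, the strand setting or the handling of reads with several matches. All deposited signal columns summed to 1 total and 100% of values were whole multiples of a step per library (tolerance 0.01 reads), so whole reads were recovered by division and levels are RPM. The design had assumed normalized values, and the log test was kept.

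The two-sided test on 409 names used limma 3.58.1 (R 4.3.3) with a trend of variance on level and no further scaling. edgeR 4.0.16 and DESeq2 1.42.0 on the recovered reads were alternatives. Scripts were tested on simulated data. Replicate numbers were taken as pairs because deviations from group means had correlations of 0.14, 0.28 and 0.16 within pairs and at most 0.07 otherwise, from the data alone. Libraries of a group differed beyond sampling noise (chi-square of 33.3 or more per degree of freedom).

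Members and lists were chosen with earlier results of these data known. Named were all members, their other arms and opposite-strand names, up to 3 names per list by level and 2 nearest patterns for each of 3 members; miR-802-5p, miR-137-3p, miR-216a-5p, miR-200a-3p and miR-200b-3p were added for their values. Hairpins come from RefSeq and GENCODE vM21, both on GRCm38.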

Additional observations from a re-analysis of the deposited data

How the results depend on the processing

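Under each of the 17 alternatives run, 0 of the members tested passed. For all names the count of 0 became 1 without a filter, 2 in DESeq2, 4 in limma with the replicate block, and 0 to 1 when single libraries were left out, and stayed at 0 under 13 of the 17. The replicate block changed no call among the members, where limma's smallest adjusted p was 0.365 for miR-9-5p. Of 8 members, 7 kept their direction under the alternatives run for them. miR-375-3p did not, with log2 fold changes of -0.12 to 0.40 when single libraries were left out. The estimate for miR-9-3p was 0.10 in its smallest and 0.94 in its largest alternative, and that for miR-9-5p ran from 0.14 to 0.51 without single libraries. The summed level of the members differed by 335 RPM, I/R minus Sham, 113 RPM with median-ratio scaling, and 211 to 538 RPM without single libraries. Depth limits the scarce members most. miR-205-5p never exceeded 2 reads in a library, and the highest library of miR-375-3p had 16 reads.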

Other observations

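Outside the tested names, 2 scarce relatives of the members had no overlap between groups, and both were singled out after their values were seen. miR-215-3p, the other arm of miR-215, had 5, 3 and 3 reads in I/R replicates 1 to 3, against 1, 1 and 2 reads in Sham replicates 1 to 3. miR-203b-3p, read opposite to miR-203-5p, had 2, 2 and 1 reads in I/R replicates 1 to 3 and 0 reads in each Sham heart. Both lay at or near the limit of 3 reads per library and below the filter, so neither was tested. Among the 409 tested names, 11.2% were higher in I/R hearts without overlap. How often names below the filter separate in this way was not counted, so no difference is read from them.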
